A study of Mus musculus with 6 samples.

Results

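Mir31, Mir130a, Mir27a, Mir186 and Mir15a are the microRNA genes described here, 5 of the 660 microRNA rows among 23420 genes in the count tables. They were chosen by their edgeR log2 fold and p-value and their ratio to the summed microRNA counts, both from the comparison of input RNA with RNA recovered with the nuclear export factor NXF3, so that difference is given as a description, with no test. The small RNA libraries came from NIH 3T3, a line of immortalised fibroblasts derived from mouse embryos. In every library, input included, the cells had been transfected with the plasmid pEGFP-NXF3, which encodes NXF3 joined to green fluorescent protein (GFP). The 3 input libraries were made without antibody and the 3 pulldown libraries with an anti-GFP antibody (Abcam, #ab290) on protein A beads, from 3 separate experiments. A precipitation from cells without the bait was not analysed here, so each value compares the composition of pulldown RNA with that of input RNA. NXF3 was supplied from a plasmid, and the labels do not say how its level compares with that of the cells' own protein.

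A microRNA gene is transcribed into a primary transcript that the nuclear enzyme Drosha crops to a hairpin. Exportin-5 carries the hairpin to the cytoplasm, Dicer cuts it, and an arm of the hairpin is loaded onto an Argonaute protein. The loaded arm finds messenger RNAs mainly through its seed, bases 2 to 8, and arms with the same seed share most of their targets. NXF3 belongs to a family named for nuclear RNA export, whose founding member NXF1 carries messenger RNA.

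The mature arms are printed because the rows of the tables stand for genes, and the letters show which other rows could carry the same reads and targets. Sequences are from RefSeq on build GRCm38.p6, matched by symbol for all 5 genes, written 5′ to 3′ with the seed in capitals.
miR-31-5p: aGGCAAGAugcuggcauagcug
miR-31-3p: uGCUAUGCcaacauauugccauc
miR-130a-3p: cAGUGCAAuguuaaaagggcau
miR-130a-5p: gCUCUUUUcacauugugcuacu
miR-27a-3p: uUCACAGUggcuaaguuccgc
miR-27a-5p: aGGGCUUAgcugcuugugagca
miR-186-5p: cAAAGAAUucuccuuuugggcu
miR-186-3p: gCCCUAAGgugaauuuuuuggg
miR-15a-5p: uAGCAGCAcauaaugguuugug
miR-15a-3p: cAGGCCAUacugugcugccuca

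No seed was shared among the 5 genes. The arms are 21 to 23 bases long, shorter than the 30 nucleotides that the labels give as the lower end of the RNA collected (30 to 375 nucleotides). The tables hold no read lengths, so reads of a mature arm and of its hairpin cannot be told apart, and each value is of the gene. Hairpins were matched for Mir31, Mir130a, Mir27a and Mir186. They are shown with the mature arms in capitals, because hairpins of this size lie inside the labelled range.
Mir31 hairpin (chr4:88910557-88910662, minus strand): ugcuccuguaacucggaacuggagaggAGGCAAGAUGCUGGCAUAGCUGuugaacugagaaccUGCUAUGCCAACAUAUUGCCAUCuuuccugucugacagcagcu
Mir130a hairpin (chr2:84741115-84741178, minus strand): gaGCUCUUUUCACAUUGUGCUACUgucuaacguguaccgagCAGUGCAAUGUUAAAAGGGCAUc
Mir27a hairpin (chr8:84208672-84208758, plus strand): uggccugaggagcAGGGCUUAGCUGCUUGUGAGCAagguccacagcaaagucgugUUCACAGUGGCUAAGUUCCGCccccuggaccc
Mir186 hairpin (chr3:157544279-157544349, plus strand): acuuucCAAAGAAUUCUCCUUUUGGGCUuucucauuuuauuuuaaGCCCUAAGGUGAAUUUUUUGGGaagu

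For Mir15a the mature arms lie on chromosome 14, minus strand, with miR-15a-5p at chr14:61632075-61632096. These coordinates are of GRCm38.p6 and not of mm9, the build named in the submitters' processing notes. The hairpins run from 64 bases (Mir130a) to 106 bases (Mir31), against a median of 79 in the 33 tested microRNA rows with a RefSeq hairpin (range 64 to 109). Their GC content was 33.8% for Mir186, 45.3% for Mir130a, 50% for Mir31 and 59.8% for Mir27a, and the median of those 33 rows was 51.9%.

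The libraries held 769570 to 6946284 gene counts and 332 to 8398 microRNA counts. Pulldown 1 stood apart, with 332 microRNA counts in 57 microRNA rows, while the other 5 libraries had 1212 to 8398 counts in 93 to 149 rows. Small nucleolar RNA rows, taken as symbols Snord or Snora followed by a number, and the Gas5 row together took 92.9% to 97.2% of gene counts. Levels are given as CPM, each count divided by its library's TMM-scaled size and expressed per 1e6 counts. All 10 fibroblast markers listed had reads, with a summed level of 270 to 332 CPM in input against 256 to 354 CPM in the pulldown. Of 5 epithelial markers 0 had a read, and so did 0 of 18 microRNA rows of other cell types. A read was found for 1 of 5 leukocyte, 2 of 5 adipocyte and 1 of 3 endothelial markers. Each of these lists summed to at most 0.35 CPM in any library. Of 10 microRNA rows known from fibroblasts, Mir21, Mir199a-1, Mir199a-2 and Mir214 were at 0 in every library. Mir143, Mir29b-1 and Mir221 were read in all 6, and Mir145, Mir29a and Mir222 in some. A count of 0 allows up to 3 counts. Reads set aside as ambiguous between genes made up 0.197% (pulldown 1) to 0.427% (pulldown 2) of all reads. The genes of those reads and the overlap setting are not given, so absence of the microRNAs at 0 from the cells was not shown. In such bulk libraries fewer cells of a type and less RNA per cell cannot be told apart.

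Of the 5 genes, 4 passed the filter on low counts and entered the edgeR fit with 1852 genes. In that fit 0 of the 4 members and 0.054% of all tested genes passed a Benjamini-Hochberg adjusted p of 0.05. DESeq2 and limma-voom called 0 of the 4 as well, against 2 and 1 of all 1852 genes. The unadjusted p in edgeR, one of the values that chose the members, was under 0.05 for all 4, and over all 1852 genes for 42 higher and 62 lower. Mir186 did not enter. The groups did not overlap in CPM for Mir130a and Mir27a, higher in the pulldown, or for Mir15a, lower in the pulldown. Over all tested genes the share without overlap was 4.27% for higher and 6.16% for lower pulldown values, and over the 38 tested microRNA rows it was 5.26% and 7.89%. Because this contrast chose the members, nothing is read from those counts. A second scale divides each count by the summed microRNA rows of its library, which removes differences in how much microRNA a library held. On that scale Mir31, Mir130a and Mir15a had groups that did not overlap, as did 7.89% of the tested microRNA rows in each direction. For Mir15a this rests in pulldown 1 on a count of 0, whose upper limit reaches into the input range.

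**Figure D1:**
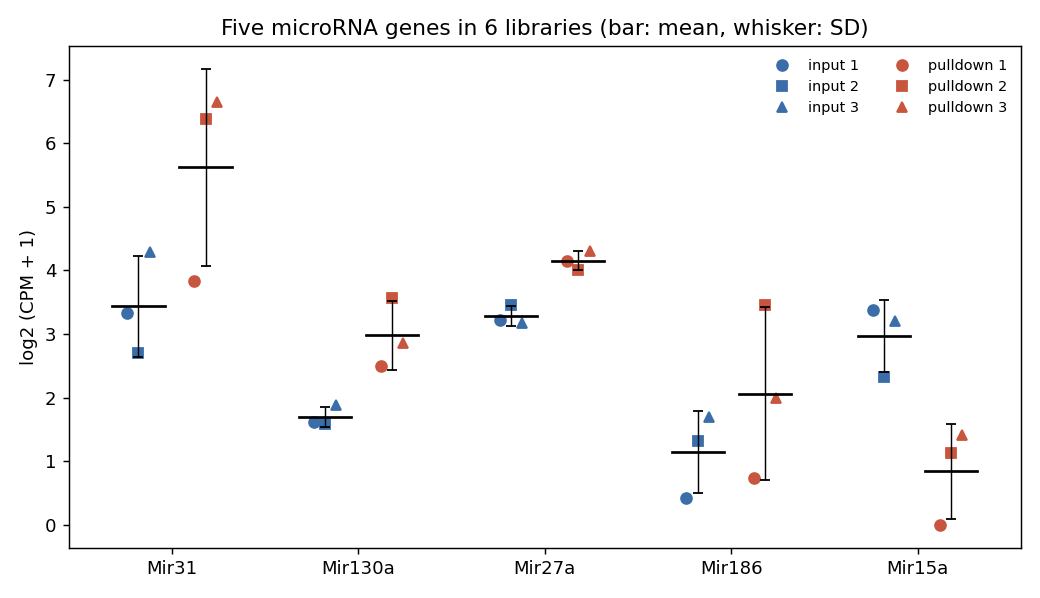
Level of each gene in each library as log2 (CPM + 1), with input in blue, pulldown in red, the symbol giving the library number, the bar the mean and the whisker the SD (n = 3). Mir130a and Mir27a lie higher in every pulldown library than in any input library, Mir15a lies lower, and Mir31 and Mir186 overlap.

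Mir31 is known for repressing genes of cell adhesion and movement, RhoA and integrin alpha 5 among them. It had 26, 11 and 83 counts across inputs 1 to 3 against 20, 349 and 299 in pulldowns 1 to 3. Scaled for library size these are 9.01, 5.50 and 18.5 CPM in input against 13.3, 82.6 and 98.9 CPM in the pulldown. Pulldowns 2 and 3 lay far above all inputs, and pulldown 1 lay between inputs 1 and 3. The means were 11.0 ± 6.72 CPM in input against 64.9 ± 45.4 CPM in the pulldown (SD, n = 3 each), and the edgeR log2 fold was 2.53 (SE 0.63).

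As a share of summed microRNA counts, a scale used to choose it, Mir31 had groups that did not overlap. So did 7.89% of the tested microRNA rows, counting those higher in the pulldown, and nothing is read from this separation. Mir31 took 1.24%, 0.908% and 1.60% across inputs 1 to 3 against 6.02%, 4.16% and 6.94% in pulldowns 1 to 3. The exact Clopper-Pearson 95% interval in pulldown 1, the library with the fewest reads, was 3.72% to 9.15%, above the upper limit of 1.98% in input 3. Such intervals cover counting error only, because PCR copies carry no molecular identifier and cannot be counted as separate molecules. The log2 ratio to the microRNA sum was 2.18 higher in the pulldown (SE 0.31), the largest difference among the 38 tested microRNA rows and Mir186. Leaving out single libraries gave 1.98 to 2.40 on this scale, and 2.14 to 3.15 for the edgeR log2 fold, the highest without input 3. Mir31 went from place 13 among microRNA rows by mean input CPM to place 4 by mean pulldown CPM.

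Mir31 overlaps an exon of AL805899.1, a long noncoding RNA gene on the same strand in the GENCODE M21 models. That gene has no row in the tables, so its reads are not analysed here. No other RefSeq mature arm carries the seed of either Mir31 arm.

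Mir130a is known for repressing Pparg, the master regulator of fat cell formation. Its counts were 6, 4 and 12 across inputs 1 to 3 against 7, 46 and 19 in pulldowns 1 to 3, the fewest reads of the 4 genes tested in input. They correspond to 2.08, 2.00 and 2.67 CPM in input against 4.67, 10.9 and 6.28 CPM in the pulldown. Each pulldown library lay above each input library, although the exact Poisson interval of the 7 reads in pulldown 1 (1.88 to 9.61 CPM) covers all input values. The log2 fold was 1.73 (SE 0.38), and 1.26 without pulldown 2, the highest library.

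Relative to the microRNA sum, Mir130a took 0.286%, 0.330% and 0.231% across inputs 1 to 3 against 2.11%, 0.548% and 0.441% in pulldowns 1 to 3. Pulldown 1 is the highest here, and the exact intervals of pulldown 2 (0.401% to 0.730%) and input 2 (0.0900% to 0.843%) overlap. The log2 ratio was 1.45 higher in the pulldown (SE 0.75), and 0.73 higher without pulldown 1. Mir130a lies outside annotated genes, 990 bases from Gm19426 on the same strand and 2459 bases from Ypel4 on the other strand. Ypel4 had 2 reads, both in pulldown 2.

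**Figure D2:**
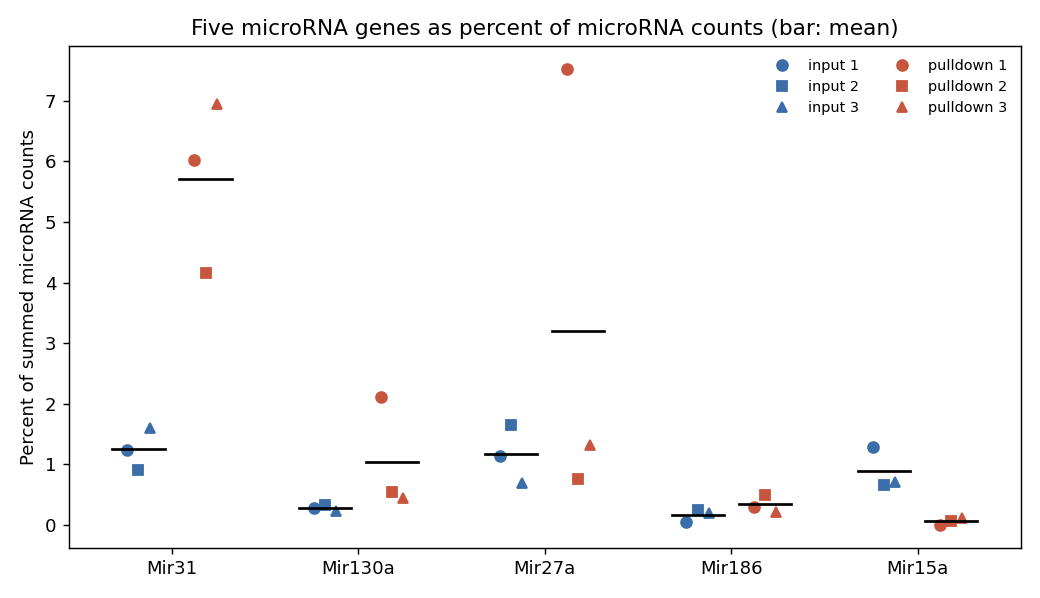
Each gene as percent of the summed microRNA counts of its library, with input in blue, pulldown in red and the bar at the mean (n = 3). Mir31 is at 4.16% to 6.94% in the pulldown and at 0.908% to 1.60% in input, and the pulldown mean of Mir27a is set by pulldown 1 at 7.53%.

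Mir27a is another repressor of Pparg and is degraded in mouse cells infected with cytomegalovirus. It had 24, 20 and 36 counts across inputs 1 to 3 against 25, 64 and 57 in pulldowns 1 to 3. The levels were 8.32, 9.99 and 8.02 CPM in input against 16.7, 15.1 and 18.8 CPM in the pulldown. Relative to their means these groups had the smallest SDs of the 5 genes, at 8.78 ± 1.06 and 16.9 ± 1.86 CPM (SD, n = 3 each), without overlap. The log2 fold was 0.96 (SE 0.26), and 0.86 to 1.05 when single libraries were left out. These levels rest on TMM factors that ran from 0.61 in pulldown 2 to 1.95 in pulldown 1. With total-count scaling, which leaves the factors out, the log2 fold was 1.12 with a larger SE of 0.69.

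The picture for Mir27a differed on the microRNA scale. It took 1.14%, 1.65% and 0.694% of microRNA counts across inputs 1 to 3 against 7.53%, 0.762% and 1.32% in pulldowns 1 to 3. Pulldowns 2 and 3 lay inside the input range, and pulldown 1 lay far above it, with an exact interval of 4.93% to 10.9%. The log2 ratio was 0.83 higher in the pulldown (SE 1.07) with all libraries and 0.14 lower without pulldown 1 (value -0.14). The summed microRNA rows took 0.0549%, 0.0643% and 0.132% of gene counts in inputs 1, 2 and 3 against 0.0431%, 0.121% and 0.131% in pulldowns 1, 2 and 3, smallest in pulldown 1 and largest in input 3. The part of this sum in the difference between scales was not tested.

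Mir27a is transcribed with Mir23a, 79 bases away, and Mir24-2, 56 bases away on the same strand. Mir23a had 20, 30 and 49 counts across inputs 1 to 3 against 5, 60 and 59 in pulldowns 1 to 3. edgeR gave it a log2 fold of 0.30 with a 95% interval of -0.63 to 1.23 (SE 0.43, Benjamini-Hochberg adjusted p = 0.97). Mir27a made up 54.5%, 40.0% and 42.4% of the reads of both genes across inputs 1 to 3 against 83.3%, 51.6% and 49.1% in pulldowns 1 to 3. Pulldown 1 alone stood off, on 30 reads in all (exact interval 65.3% to 94.4%). Mir24-2 was at 0 in every library, and so was Mir24-1, a gene elsewhere with an identical mature arm. The sources used here do not give how reads with 2 equal matches were placed.

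Mir27b is the other gene with the miR-27a-3p seed, and the arms are shown because they differ at a single base, C19U, counted from 1 at the 5′ end of miR-27a-3p.
miR-27a-3p: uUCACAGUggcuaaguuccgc
miR-27b-3p: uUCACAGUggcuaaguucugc
Mir27b had 17, 7 and 31 counts across inputs 1 to 3 against 0, 39 and 6 in pulldowns 1 to 3. edgeR gave it a log2 fold of -0.28 with a 95% interval of -1.56 to 1.00 (SE 0.59, Benjamini-Hochberg adjusted p = 0.99). As a share of summed microRNA counts Mir27b was lower in every pulldown than in any input, as were 7.89% of the tested microRNA rows. Its log2 ratio differed by -1.62, and the 0 in pulldown 1 allows up to 0.904% of microRNA counts. Mir27a supplied 58.5%, 74.1% and 53.7% of the reads of this pair in input, and 100%, 62.1% and 90.5% in pulldowns 1 to 3. Reads of Mir27b made up few of the pair in pulldowns 1 and 3, and pulldown 2 lay within the input range.

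**Figure D3:**
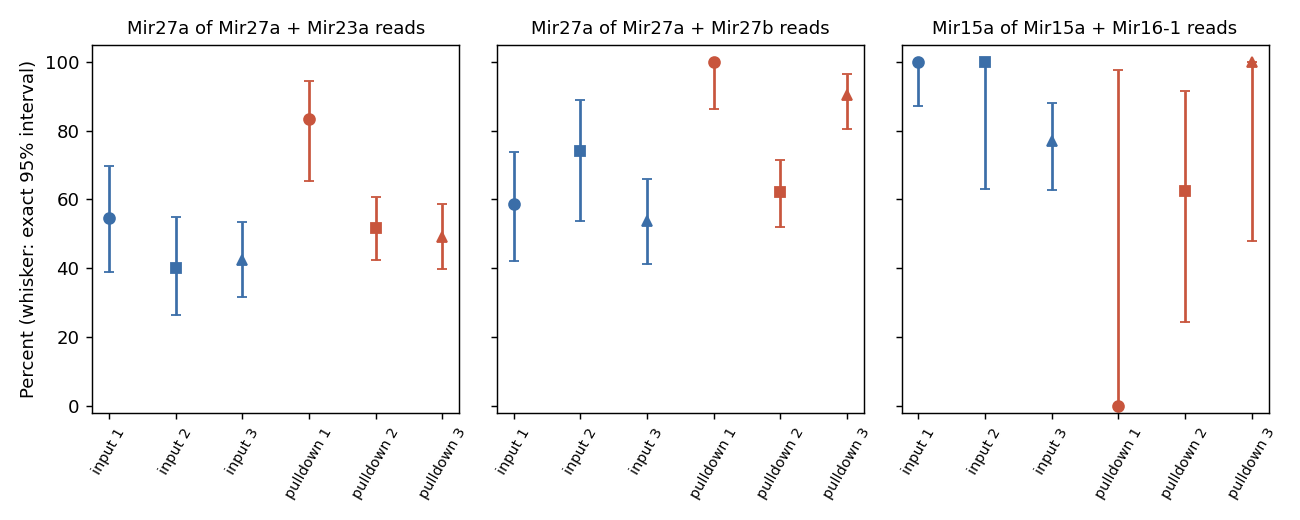
Share of reads that a gene took within a pair, by library, with exact 95% intervals that cover counting error only. Mir27a and its neighbour Mir23a shared reads about evenly except in pulldown 1 (83.3%), Mir27a took 90.5% to 100% of its pair with Mir27b in pulldowns 1 and 3, and the Mir15a pair rests on 1 to 8 reads in the pulldown.

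Mir186 lies in an intron of Zranb2, which encodes a zinc finger protein of splicing, on the same strand. It was the rarest of the 5 genes in input, with 1, 3 and 10 counts across inputs 1 to 3 against 1, 42 and 9 in pulldowns 1 to 3. The levels were 0.347, 1.499 and 2.23 CPM in input against 0.667, 9.94 and 2.98 CPM in the pulldown. Only pulldown 2 lay clearly above the inputs, and the single read in pulldown 1 (exact Poisson interval 0.0169 to 3.71 CPM) sets no useful limit. Mir186 took 0.0476%, 0.248% and 0.193% of microRNA counts across inputs 1 to 3 against 0.301%, 0.5001% and 0.209% in pulldowns 1 to 3. The groups overlap on both scales. The log2 ratio was 1.20 higher in the pulldown (SE 0.71), and 0.61 higher without input 1.

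The Zranb2 row had 4, 7 and 13 reads across inputs 1 to 3 against 7, 12 and 6 in pulldowns 1 to 3. edgeR gave it a log2 fold of 0.18 with a 95% interval of -0.84 to 1.20 (SE 0.47, Benjamini-Hochberg adjusted p = 0.99). Mir186 took 20.0%, 30.0% and 43.5% of the reads of both rows across inputs 1 to 3 against 12.5%, 77.8% and 60% in pulldowns 1 to 3. Pulldown 2 was the highest, with an exact interval of 64.4% to 88.0%, and pulldown 1 rests on 8 reads. No other RefSeq mature arm carries a Mir186 seed.

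Mir15a, with its neighbour Mir16-1, is known for repressing Bcl2 and cyclins of the cell cycle, and the locus is lost in many chronic lymphocytic leukaemias. It was the member that was lower in the pulldown. Its counts were 27, 8 and 37 across inputs 1 to 3 against 0, 5 and 5 in pulldowns 1 to 3, or 9.36, 3.997 and 8.24 CPM against 0, 1.18 and 1.65 CPM. Every pulldown library lay below every input library. A count of 0 in pulldown 1 allows up to 3 counts, or 2.00 CPM, which is below the lowest input value. That limit lies inside the exact Poisson interval of input 2 (1.73 to 7.88 CPM). The exact upper limits of pulldown 2 (2.76 CPM) and pulldown 3 (3.86 CPM) lie inside it as well. The means were 7.20 ± 2.83 and 0.945 ± 0.852 CPM (SD, n = 3 each), and the log2 fold was -2.69 (SE 0.49).

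The share of microRNA counts gave the same order for Mir15a, with 1.29%, 0.660% and 0.713% across inputs 1 to 3 against 0%, 0.0595% and 0.116% in pulldowns 1 to 3. The 0 reads among 332 in pulldown 1 allow up to 0.904%, which reaches into the input range, so on this scale pulldown 1 cannot be placed below the inputs. The exact upper limits of pulldown 2 (0.139%) and pulldown 3 (0.271%) lie below the lower limit of input 2 (0.285%). This scale was used to choose Mir15a, and 7.89% of the tested microRNA rows were lower in the pulldown without overlap, so nothing is read from the separation. The log2 ratio differed by -3.01 (SE 0.47), the most negative of the 38 tested microRNA rows and Mir186, and by -2.65 to -3.25 when single libraries were left out.

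Mir15a lies in an intron of Dleu2, a long noncoding RNA gene, 54 bases from Mir16-1. Dleu2 had 5 reads in all (1, 0 and 2 in the inputs, 0, 2 and 0 in the pulldowns) and Mir16-1 had 15 (0, 0 and 11 in the inputs, 1, 3 and 0 in the pulldowns), too few to test. The arms of the family members with more than 1 read are shown because a read of Mir16-1 can equally match Mir16-2, while the Mir15a arm is not identical to any other.
miR-15a-5p: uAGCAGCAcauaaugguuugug
miR-15b-5p: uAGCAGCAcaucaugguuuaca
miR-16-5p: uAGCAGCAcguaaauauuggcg
From miR-15a-5p to miR-15b-5p the differences are A12C, G20A, U21C and G22A, counted from the 5′ end. Mir15b, in another locus, had 1, 0 and 4 counts in input against 0, 6 and 4 in the pulldown. Mir15a took 96.4%, 100% and 90.2% of the reads of Mir15a and Mir15b across inputs 1 to 3 against 45.5% of 11 reads and 55.6% of 9 reads in pulldowns 2 and 3. The exact intervals in those pulldowns reach 76.6% and 86.3%, above the lower limit of input 2 (63.1%, 8 reads), so these shares were not separated from those of input at this depth. Pulldown 1 had no read of either gene. Mir195 and Mir322 were at 0 in every library, and Mir497 had 1 read.

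The family of Mir130a was less well covered. The arms of Mir130b and Mir301 are given because they carry its seed. From miR-130a-3p to miR-130b-3p the differences are U11A and A13G, counted from the 5′ end, and miR-301a-3p differs at 10 positions of an alignment without gaps.
miR-130a-3p: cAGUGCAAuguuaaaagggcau
miR-130b-3p: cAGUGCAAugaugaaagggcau
miR-301a-3p: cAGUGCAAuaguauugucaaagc
Mir130b had 0, 2 and 1 counts in input against 0, 6 and 1 in the pulldown. Mir301 had 7, 1 and 1 counts in input against 0, 32 and 6 in the pulldown, so its pulldown 2 value was high as well. Mir130a took 66.7% to 100% of its pair with Mir130b in the inputs and 88.5% to 100% in the pulldowns. Of its pair with Mir301 it took 46.2%, 80.0% and 92.3% in inputs 1, 2 and 3 against 100%, 59.0% and 76.0% in pulldowns 1, 2 and 3. The ranges overlap for both pairs. None of these rows reached a mean of 10 counts.

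Levels of different genes were compared per 100 bases of gene length. This assumes that counts rise with gene length, which was not tested because read lengths are not given. In input Mir31 (10.4 ± 6.34 CPM per 100 bases), Mir27a (10.1 ± 1.22) and Mir15a (8.57 ± 3.37) overlapped, Mir130a followed at 3.52 ± 0.575, and Mir186 at 1.91 ± 1.34 reached just into the range of Mir130a. In the pulldown the order was Mir31 (61.2 ± 42.8), Mir27a (19.4 ± 2.14), Mir130a (11.4 ± 5.04), Mir186 (6.38 ± 6.80) and Mir15a (1.13 ± 1.01, SD, n = 3 each). Mir15a thus stood in place 3 in input and last in the pulldown, where its highest library (1.97) lay above the lowest of Mir186 (0.939). Mir31 in pulldown 1 (12.6) lay below Mir27a in each pulldown library (17.4 to 21.7), so their order was not the same in all libraries.

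Together the 5 genes took 4.0%, 3.80% and 3.43% of microRNA counts across inputs 1 to 3 against 16.0%, 6.03% and 9.03% in pulldowns 1 to 3. The 53 reads in pulldown 1 were mainly Mir27a (25) and Mir31 (20). The other microRNA rows supply most of the sum that the choice of members used, so their share of gene counts is given with no test. They took 0.0806% ± 0.0407 of gene counts in input against 0.0898% ± 0.0465 in the pulldown. The difference of 0.0092 points was smaller than the SD of either group (n = 3 each), and its sign turned without input 1, input 2, pulldown 2 or pulldown 3. In single libraries the share of the other rows was 0.0527%, 0.0619% and 0.127% in input and 0.0363%, 0.114% and 0.120% in the pulldown, lowest in pulldown 1. Small nucleolar RNA and Gas5 make up nearly all of that denominator. Without them the difference was 1.03 points of a much smaller total, so its size cannot be set against the 0.0092 points. The share was then 1.22%, 1.11% and 2.15% in inputs 1 to 3, below pulldowns 2 (4.01%) and 3 (3.06%) and above pulldown 1 (0.513%).

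**Figure D4:**
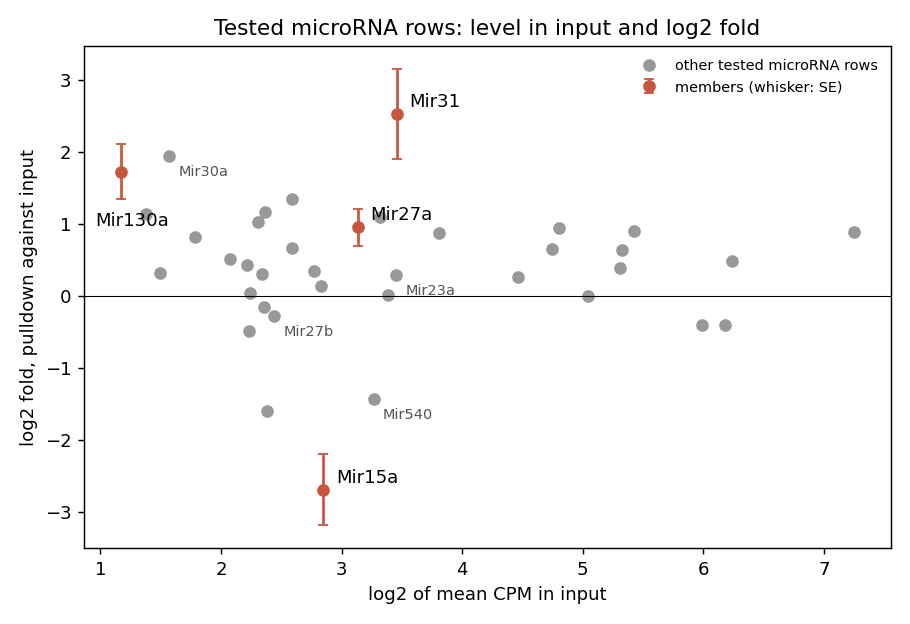
The edgeR log2 fold of pulldown against input for 38 tested microRNA rows against their level in input (log2 of mean CPM), with the 4 tested members in red (whisker: SE). Mir31 at 2.53 and Mir15a at -2.69 are the extremes, and Mir130a is at 1.73 and Mir27a at 0.96.

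Of the 38 tested microRNA rows 30 had positive log2 folds, with a median of 0.47, against a median of 0.00 over all 1852 genes (value -0.0039). The median of the microRNA rows was 0.98 without pulldown 1 and 0.06 without pulldown 2, and 0.15 with total-count scaling and 0.14 with limma-voom. Ratios to the microRNA sum had a median difference of -0.12, and 17 of the 38 were positive. Ranked by p in that fit, Mir130a, Mir31 and Mir27a led the higher microRNA rows in that order. The next, Mir30a, had a log2 fold of 1.95 (SE 0.72), with 7, 9 and 9 counts in input against 0, 89 and 20 in the pulldown. Mir15a stood first among lower rows, and the next was Mir540, with a log2 fold of -1.42 (SE 0.39). Mir540 had a smaller p than Mir27a, so the 5 genes are not the 5 most extreme rows of the fit. By the ratio to the microRNA sum Mir31, Mir130a, Mir186 and Mir27a stood highest, and the row just outside was Mir341, with a log2 difference of 0.78. At the other end Mir540 (-1.95) was the row next to Mir15a.

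The genes whose profile over the 6 libraries lay nearest to a member were found by the root mean square difference of centred log2 CPM. Mir27a lay nearest to Rnf4 (0.186) and Chd2 (0.197), which encode a ubiquitin ligase and a chromatin remodeller, and less near to its closest microRNA rows, Mir130a (0.489) and Mirlet7b (0.620). Mir130a lay nearest to Scarna17 (0.380), a small Cajal body RNA, and Rpn1 (0.390). The nearest to Mir15a were Mir540 (0.481) and Vaultrc5 (0.600), a vault RNA. Mir540 had 31, 18 and 41 counts in input against 1, 15 and 16 in the pulldown, and its CPM was likewise lower in every pulldown library. The nearest to Mir31 were Mir341 (0.773) and Mir409 (0.802). The median distance over all tested genes was 1.55 for Mir31, 1.40 for Mir15a, 0.857 for Mir130a and 0.601 for Mir27a, so Mirlet7b lay farther from Mir27a than its median gene. Genes with few reads can lie near by counting noise, and the 6 libraries are shared by all profiles.

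Genes of microRNA processing and Argonaute complexes are messenger RNAs, read here only as fragments of low count. Of 28 such rows 11 were tested and 0 passed in either direction, at an adjusted p of 0.05 in edgeR or at an unadjusted p under 0.05. DESeq2 and limma-voom called 0 as well, against 2 and 1 of all 1852 genes. In edgeR 0.054% of all tested genes passed the adjusted threshold, and 42 higher and 62 lower had an unadjusted p under 0.05. The log2 folds of the 11 tested rows were positive in 7 and negative in 4, with a median of 0.11. The smallest p-values were those of Ddx17, a Drosha cofactor (log2 fold 0.54, SE 0.34, 95% interval -0.19 to 1.27), Xrn2, a nuclear exonuclease (0.44, SE 0.32, -0.24 to 1.12), and Zcchc11, which adds uridine to microRNA precursors (0.50, SE 0.42, -0.41 to 1.40). Xpo5, which exports the hairpins, had 14, 13 and 24 counts in input against 9, 23 and 7 in the pulldown, and Eif2c2, the gene of Argonaute 2, had 25, 17 and 29 counts in input against 9, 40 and 26 in the pulldown.

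**Figure D5:**
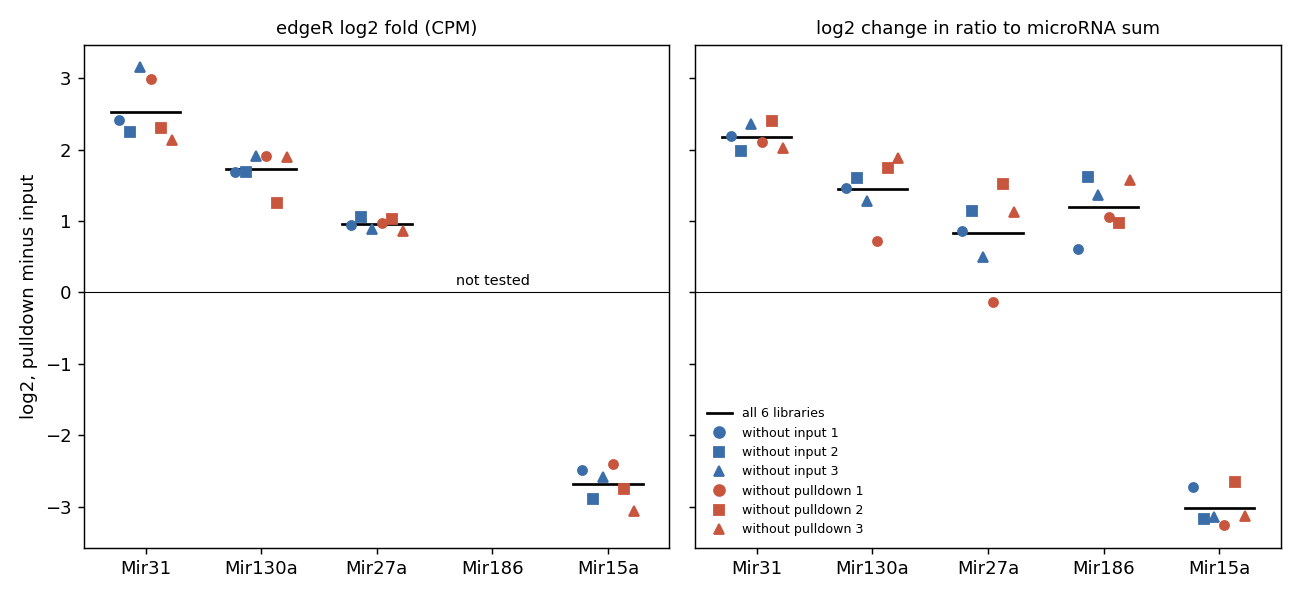
Difference of pulldown and input for each gene with all 6 libraries (bar) and with each library left out (symbols), as edgeR log2 fold on the left and as log2 ratio to the summed microRNA counts on the right. Mir31 and Mir15a keep their distance from 0 on both scales, and Mir27a reaches -0.14 on the right without pulldown 1.

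The 5 genes depended on single libraries to different degrees. On the microRNA scale, Mir31 and Mir15a varied least relative to their difference, Mir130a went from 1.45 to 0.73 without pulldown 1, Mir186 from 1.20 to 0.61 without input 1, and Mir27a changed sign without pulldown 1. In the edgeR fit over all genes without pulldown 1, Mir31, Mir130a and Mir15a passed the adjusted threshold, with log2 folds of 2.99, 1.91 and -2.40, and 11 of 2261 genes did so in all. Because this contrast chose the members, nothing is read from these calls. Without pulldown 2 edgeR called 0 of 2293 genes, and the log2 folds of Mir31, Mir130a and Mir15a were 2.31, 1.26 and -2.75.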

How the data were processed

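The deposited tables hold raw read counts per gene symbol, 1 per library, as the authors made them. Bowtie, Partek and mouse build mm9 are named per the submitters' processing notes, with no versions. Per the file names and closing lines, rRNA reads had been removed and reads were counted with HTSeq-count, and the sources used here give neither its strand setting nor its annotation. Libraries were amplified with 14 PCR cycles, per the labels' protocols. The 5 summary lines were left out. Gene counts per library were 769570 to 6946284, and a count of 0 allows up to 3 counts.

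The fit used edgeR 4.0.16 in R 4.3.3 (TMM, default filterByExpr with minimum count 10, quasi-likelihood F test, Benjamini-Hochberg over all 1852 tested genes, threshold 0.05) and was tested on simulated data. SEs come from the F statistic. MicroRNA rows are symbols Mir or Mirlet followed by a number, without host genes. Ratios to their sum used a pseudocount of 0.5, and log2 CPM a prior count of 2. Named besides the members are hosts, microRNA rows within 10 kb, rows of shared seed, nearest profiles, the 3 pathway genes of smallest p and the microRNA rows next in rank. Family rows under a mean of 10 counts, Xpo5, Eif2c2, the fibroblast microRNA rows and Ypel4 were named after their values were seen. The members and lists were chosen with earlier results of these data known. Alternatives were other scalings, filters, pseudocounts, denominators, DESeq2 1.42.0, limma-voom (limma 3.58.1), a replicate block and each library left out.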

Additional observations from a re-analysis of the deposited data

How the results depend on the processing

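Directions of the 4 fitted log2 folds held in all 13 or 14 alternatives for each gene (13 for Mir130a, Mir27a and Mir15a, 14 for Mir31), with ranges of 1.26 to 1.91 for Mir130a, 0.86 to 1.39 for Mir27a (1.39 with the microRNA sum as library size, which moves the median of all genes to 0.24), 1.96 to 3.15 for Mir31 and -3.45 to -2.40 for Mir15a. Leaving out single libraries gave 1.26 to 1.91 for Mir130a. The ratio of Mir27a to the microRNA sum ran from -0.14 (without pulldown 1) to 1.52 (without pulldown 2), and that of Mir15a was -2.24 with a pseudocount of 2, where its 0 weighs less. Genes called higher (0 in the fit with TMM and the default filter) numbered 7 without a filter, 1 with a mean of at least 50 counts, 1 with DESeq2 and 1 with the replicate block, and 0 to 6 with single libraries left out. Genes called lower (1) numbered 0 with total-count scaling, 0 with the microRNA sum as library size, 9 without a filter, 0 with a mean of at least 50 counts, 3 with the replicate block, and 0 to 5 with single libraries left out; the cause was not tested. Without a filter Mir31, Mir130a, Mir186 (log2 fold 1.89) and Mir15a passed, among 16 of 12025 genes, and without input 2 Mir15a passed, among 2 of 2394 genes. The members were picked on this contrast. With a mean of at least 50 counts, Mir31 alone of the members could be fitted.

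The replicate block called none of the 4 members, and 4 of 1852 genes in all. Its log2 folds were 2.32 (Mir31), 1.58 (Mir130a), 0.96 (Mir27a) and -2.52 (Mir15a). Equal numbers share only a number in the labels, and deviations of same-numbered libraries correlated at 0.030, 0.065 and 0.136. The difference in the share of the other microRNA rows, 0.0092 points, ran from -0.0057 to 0.0360 with single libraries left out, and was 1.03 points with small nucleolar RNA and Gas5 left out of the denominator, a smaller total. Among host, cluster and family genes, none of which passed in those fits, Zranb2 ran from -0.075 to 0.42, Mir23a from -0.077 to 0.65 and Mir27b from -2.11 to 0.10. With the microRNA sum as library size Mir23a was at -0.31, Zranb2 at 0.72 and Mir27b at -1.33. Mir130a and Mir186 rest on 94 and 66 reads in all.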
